A study of Rattus norvegicus with 16 samples.

Results

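The change that 6 weeks of fructose brought in the hypothalamus was set against the change it brought in the hippocampus, gene by gene, in male Sprague Dawley rats. The members were all gene symbols with exactly 1 locus in each region's table and a mean of at least 1 FPKM (fragments counted on a transcript, scaled to its length and to the library's mapped fragments) in both regions. This gave 8239 genes, of 13580 symbols with 1 locus in both tables and 16514 symbols in either. The groups were untreated and fructose-fed rats for each region: 4 hippocampus control, 4 hippocampus fructose, 4 hypothalamus control and 3 hypothalamus fructose libraries, of 16 samples in the labels. Fructose replicate 4 of the hypothalamus was not analysed here. The labels give no age, no fructose dose and no statement on whether a rat gave both regions or whether the replicates were separate animals, so p-values measure the spread between these samples only.

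The hippocampus is a cortical structure built on excitatory neurons that serves memory, and the hypothalamus is a set of nuclei around the third ventricle that controls feeding, water balance and hormone release. Both are covered by the leptomeninges, thin membranes whose fibroblasts make collagens and retinoic acid, and both border on ventricles lined by ependymal cells with motile cilia. Dietary fructose enters cells mainly through the transporter Slc2a5 and is phosphorylated by ketohexokinase. A difference between regions below 0 means that the fructose-minus-control change was lower in hypothalamus than in hippocampus, and one above 0 that it was higher. All changes are differences of log2(FPKM + 1), a scale that understates the fold change of genes at low FPKM.

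The libraries carried the markers of their labelled regions. Neurod6, a transcription factor of forebrain excitatory neurons, lay at 40.1 to 87.2 FPKM in hippocampus and 0.296 to 2.62 in hypothalamus, and Hcrt, the orexin precursor, at 0.99 to 4.73 and 446 to 1053. Fibcd1, a marker of a hippocampal field, was listed at 0 in all 15 libraries. The pituitary transcription factor Pou1f1 lay at 16.4 to 29.8 FPKM in hypothalamus and at most 0.0612 in hippocampus, and Tshb, the thyrotropin beta chain, at 0.946 to 206 and at most 0.308. The growth hormone gene Gh1 reached 7.97 FPKM in hypothalamus and 1.10 in hippocampus, and Prl, the prolactin gene, 0.344 and 0. The part of pituitary tissue in the hypothalamus values was not tested. Genes restricted to a single region, such as those of 11 joined hypothalamic transcription factors and 6 joined pituitary genes, fell under the filter and had no test. In hypothalamus the replicate 1 libraries stood apart. Across genes, the replicate 1 libraries correlated with the other libraries of their region at 0.947 to 0.977 in hippocampus and 0.939 to 0.962 in hypothalamus, and with each other at 0.985 and 0.981. The other libraries correlated among themselves at 0.955 to 0.986 in hippocampus, which overlaps the range of replicate 1, and at 0.964 to 0.985 in hypothalamus, which does not. The files give no read counts, so the depth of the libraries is unknown.

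Sequences are shown for the gene with a shared change past the test and for 2 ciliated ependymal markers, whose values differed in direction between the regions. These 2 were picked because their windows hold the motif named below, so their matches are not a result. Each is the RefSeq promoter window on the build GRCr8, from 250 bases before to 50 after the start of the gene, on a later build than the rn5 of the files. Capitals mark GTTGCC, on either strand, which is part of the X box bound by RFX transcription factors of ciliary genes. The window of Slc39a12 holds no such match, that of Spag6 holds 2 and that of Mlf1 holds 1.
Slc39a12, chr17:82262107-82262406 on the + strand: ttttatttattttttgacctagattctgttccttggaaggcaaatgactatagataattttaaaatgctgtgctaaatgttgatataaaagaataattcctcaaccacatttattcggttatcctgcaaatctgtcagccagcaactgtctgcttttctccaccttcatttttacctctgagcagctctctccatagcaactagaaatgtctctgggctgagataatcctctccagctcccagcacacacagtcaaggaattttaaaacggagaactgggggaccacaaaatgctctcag
Spag6, chr17:86261825-86262124 on the + strand: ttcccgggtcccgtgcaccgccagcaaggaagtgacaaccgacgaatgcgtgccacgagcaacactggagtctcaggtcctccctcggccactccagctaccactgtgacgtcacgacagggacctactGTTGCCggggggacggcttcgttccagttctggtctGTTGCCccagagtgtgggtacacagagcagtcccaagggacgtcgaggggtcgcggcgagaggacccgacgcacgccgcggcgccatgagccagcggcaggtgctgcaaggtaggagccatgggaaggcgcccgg
Mlf1, chr2:153958341-153958640 on the + strand: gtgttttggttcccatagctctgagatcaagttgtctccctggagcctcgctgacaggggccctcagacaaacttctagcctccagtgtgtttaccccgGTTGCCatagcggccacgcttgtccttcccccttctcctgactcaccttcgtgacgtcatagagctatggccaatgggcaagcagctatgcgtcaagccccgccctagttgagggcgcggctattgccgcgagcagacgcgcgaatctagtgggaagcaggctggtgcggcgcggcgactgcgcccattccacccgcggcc
Of 17 tested ciliated ependymal markers, 13 were matched to a promoter, and 5 of these 13 windows (38.5%) held the motif. It was in 2 of 10 windows (20%) of the meningeal fibroblast markers and in 12.2% of all 33469 windows in the table. A match is a description of the letters only.

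Slc39a12 rose with fructose in the mean over both regions. It encodes ZIP12, a plasma membrane transporter that brings zinc into the cell. In hippocampus controls it lay at 2.53, 4.51, 3.29 and 4.51 FPKM, and in fructose libraries at 4.45, 18.2, 19.8 and 35.5. In hypothalamus controls it lay at 1.45, 1.09, 0.964 and 1.01 FPKM, and in fructose libraries at 8.29, 9.63 and 9.05. All 3 hypothalamus fructose libraries exceeded every control, while in hippocampus fructose replicate 1 lay inside the control range and the other 3 above it. The change was 1.86 ± 0.39 (SE) in hippocampus and 2.23 ± 0.42 in hypothalamus on the log2 scale, neither past the test on its own (limma, adjusted p = 0.867 and 0.594). Their mean, called the shared change here, was 2.04 ± 0.285 (limma, Benjamini-Hochberg adjusted p = 0.021). Slc39a12 was the only gene of 8239 past an adjusted p of 0.05 for the shared change (0.0121%). The difference between regions was 0.38 ± 0.57 (limma, unadjusted p = 0.519), which is within its error.

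The call on Slc39a12 rests on few libraries. Leaving out hippocampus fructose replicate 1, the library inside the control range, gave an adjusted p of 2.01e-06, and leaving out all 4 replicate 1 libraries gave 0.000136 (limma). Its adjusted p lay above 0.05 when any of 10 other libraries was left out: hippocampus control 1 (0.0773), 3 (0.0722) or 4 (0.0519), hippocampus fructose 2 (0.0743) or 3 (0.0799), hypothalamus control 2 (0.0684) or 4 (0.0708), or hypothalamus fructose 1 (0.0815), 2 (0.11) or 3 (0.0929). With no filter on low values it was 0.0883, and with a minimum of 5 FPKM the gene was not among those tested. The estimate itself stayed between 1.86 and 2.31 over the 15 fits that left out 1 library.

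Of the 15 tested genes of zinc handling, none but Slc39a12 passed a test. Slc30a3, which loads zinc into synaptic vesicles, had a change of 0.05 in hippocampus and -0.73 in hypothalamus. The zinc-binding metallothionein Mt2A had 0.11 and -0.30. The list's median change was -0.01 in hippocampus and 0.01 in hypothalamus, against -0.01 and 0.01 over all 8239 genes.

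**Figure D1:**
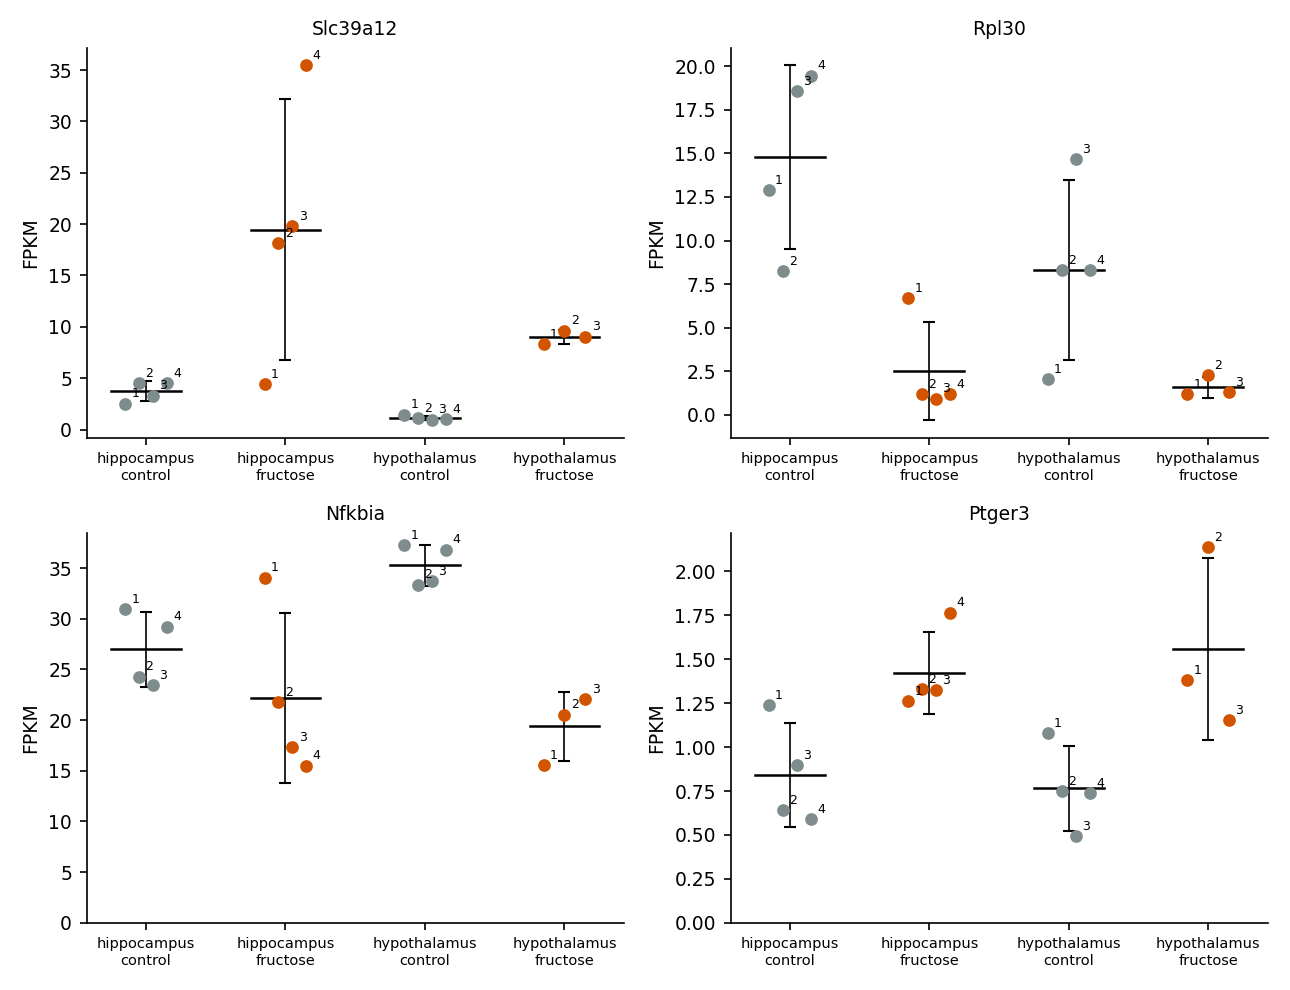
FPKM of Slc39a12, Rpl30, Nfkbia and Ptger3 in every library (points, with the replicate number beside each), with the group mean (line) and SD (bars), for control (grey) and fructose (orange) in each region. Slc39a12 is higher in all fructose libraries of the hypothalamus and in 3 of 4 of the hippocampus; Rpl30 is lower in all hippocampus fructose libraries; in both regions only Ptger3 has groups that do not overlap.

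Rpl30, which encodes a ribosomal protein, had the smallest p for a lower shared change, though it missed the threshold. In hippocampus controls it lay at 12.9, 8.23, 18.6 and 19.5 FPKM, and in fructose libraries at 6.69, 1.17, 0.921 and 1.19. In hypothalamus controls it lay at 2.04, 8.28, 14.7 and 8.29 FPKM, and in fructose libraries at 1.16, 2.27 and 1.29. The hippocampus groups did not overlap, and the hypothalamus groups overlapped through control replicate 1 and fructose replicate 2. The shared change was -2.02 ± 0.35 (limma, adjusted p = 0.125). It passed without hippocampus fructose replicate 1 (adjusted p = 0.00776), without hypothalamus control replicate 1 (0.0135) and without all replicate 1 libraries (0.00142). Ribosomal protein genes have many near-identical pseudogenes among which reads can be split, so this value is uncertain. Over 50 tested ribosomal genes, Rpl30 included, the median change was -0.07 in hippocampus and -0.16 in hypothalamus.

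No other gene with the same direction in both regions passed the adjusted test. At an unadjusted p under 0.05, 51 genes were higher (0.619%) and 49 lower (0.595%) for the shared change, together 1.21%. Where nothing changes, a p under 0.05 is met by a share of 0.05 of genes, which is more. The 51 were 32 without hypothalamus fructose 2, 103 without hypothalamus control 1 and 129 without hypothalamus fructose 1, and the 49 were 28, 74 and 182. A replicate block within each region gave 114 and 135. Ptger3, the prostaglandin E receptor EP3, was the only gene whose fructose libraries lay above all controls in both regions (0.0121% of genes had groups apart in both regions in 1 direction). It lay at 1.24, 0.641, 0.898 and 0.59 FPKM in hippocampus controls against 1.26, 1.33, 1.33 and 1.77, and at 1.08, 0.75, 0.493 and 0.739 in hypothalamus controls against 1.38, 2.14 and 1.15. The count of genes apart in both regions in 1 direction stayed at 1 in 3 of 15 fits that left out a library and reached 9 without hippocampus fructose 1. Fewer libraries leave less room for overlap, and with groups this small some genes can lie apart by chance. These are levels near the filter, and the shared change was 0.46 ± 0.12 (limma, unadjusted p = 0.000969, adjusted p = 1).

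The fructose transporter Slc2a5 was among the 8 genes with the smallest p for a higher shared change. It lay at 2.56 to 3.69 FPKM in hippocampus controls and 3.03 to 4.09 in fructose libraries, which overlap. In hypothalamus it lay at 3.31 to 5.54 and 5.89 to 7.25, which do not overlap. Its shared change was 0.34 (limma, unadjusted p = 0.0066), and the difference between regions was 0.37 ± 0.21. The other 5 tested genes of fructose transport and breakdown lay between -0.15 and 0.15 for the difference between regions. They include Slc2a8, a further fructose transporter, and Sord, which makes fructose from sorbitol; ketohexokinase was not among the tested genes.

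Nfkbia, the inhibitor of NF-kappa-B, had a shared change of -0.59 (limma, unadjusted p = 0.00096, adjusted p = 1). In hypothalamus it lay at 33.4 to 37.3 FPKM in controls and at 15.6, 20.5 and 22 in fructose libraries. In hippocampus controls it lay at 31, 24.3, 23.5 and 29.2 FPKM, against 34.1, 21.8, 17.4 and 15.5. Hippocampus fructose replicate 1 was again the library on the other side, and without it the adjusted p was 0.0478. The remaining genes named for a shared change were, on the higher side, the alanine aminotransferase Gpt2, the endocytic adaptor Ston1, the patatin-like lipase Pnpla1, the orphan receptor Gpr63 and the repressor Zhx3. On the lower side they were Dnajc17, the cytochrome oxidase subunit Cox7b, the matricellular protein Nov, the nucleotide hydrolase Nudt1, the helicase Ddx31 and the TFIIA subunit Gtf2a2. Their shared changes lay between 0.28 and 0.91 and between -0.71 and -0.30. Some of these means came mostly from 1 region. Gtf2a2 had -0.08 in hippocampus and -0.65 in hypothalamus, with a difference of -0.57 (limma, unadjusted p = 0.0424). Nov had -0.29 and -1.14, Gpt2 0.16 and 0.51, and Nudt1 -0.46 and -0.13. Others were alike in the regions, such as Gpr63 with 0.29 and 0.35 and Ddx31 with -0.30 and -0.32.

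For the difference between regions, no gene of 8239 passed an adjusted p of 0.05 (limma, 0%). At an unadjusted p under 0.05 there were 209 genes (2.54%), which were 166 with a lower change in hypothalamus (2.01%) and 43 with a higher one (0.522%). Within the regions no gene passed the adjusted test either: at an unadjusted p under 0.05 there were 41 higher (0.498%) and 32 lower genes (0.388%) in hippocampus, together 0.886%, and 88 higher (1.07%) and 123 lower genes (1.49%) in hypothalamus, together 2.56%. Each of the shares 2.54%, 0.886% and 2.56% also lies below the share of 0.05 met where nothing changes. A replicate block within each region gave 107 higher genes for the difference, 189 lower, and 95 higher and 107 lower genes in hippocampus, with 0 at an adjusted p under 0.05 in each. Weights per library changed this: they gave 90 genes higher and 249 lower at an adjusted p under 0.05, with the weight highest for hypothalamus fructose replicate 2 (5.77) and lowest for hypothalamus fructose replicate 1 (0.232).

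The 166 genes were also counted without each library. They were 63 without hypothalamus fructose 2, 80 without hippocampus fructose 2, 81 and 85 without hippocampus controls 2 and 3, 101 without hypothalamus control 4, and 296 without hippocampus control 4. The 43 genes were 25 without hypothalamus fructose 2 and 66, 71, 76, 86 and 118 without hippocampus control 4, hippocampus fructose 4, hippocampus control 1, hypothalamus control 1 and hypothalamus fructose 1. The counts within regions also moved with single libraries. In hippocampus the 41 higher genes were 21, 22 and 27 without control 2, fructose 2 and control 3, and 64, 94, 99 and 209 without fructose 4, control 1, fructose 3 and control 4. The 32 lower genes were 49, 50, 51, 52 and 62 without control 4, fructose 1, control 2, fructose 3 and control 1. In hypothalamus the 88 higher genes were 35, 47 and 58 without fructose 2, control 2 and control 4, and 190 and 226 without control 1 and fructose 1. The 123 lower genes were 34, 65 and 81 without fructose 2, control 4 and control 3, and 214 and 267 without fructose 3 and fructose 1. For the difference, a single gene passed the adjusted test without hypothalamus control 3, the uncharacterised LOC685322, whose change was 0.08 in hippocampus and 3.30 in hypothalamus.

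The lower genes held every tested marker of meningeal fibroblasts, and their changes had opposite signs in the regions. Of the 166, 163 had a change above 0 in hippocampus and below 0 in hypothalamus; choosing genes by their difference favours opposite signs. Slc22a6, the organic anion transporter OAT1 of the meninges and kidney, lay at 9.8, 0.49, 0.646 and 11.1 FPKM in hippocampus controls and 15.2, 21.3, 7.79 and 7.19 in fructose libraries. In hypothalamus it lay at 14.2, 10.2, 18.7 and 19.3 in controls and 4.49, 0.513 and 11.4 in fructose libraries. The groups overlapped in both regions, with hippocampus controls 2 and 3 and hypothalamus fructose 2 near 0.5 FPKM. The difference between regions was -3.37 ± 1.03 (limma, unadjusted p = 0.0048).

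Slc6a13, a GABA transporter of the leptomeninges, followed the same libraries. It lay at 6.8, 1.53, 1.44 and 15.3 FPKM in hippocampus controls against 15.9, 26.9, 7.85 and 6.97, and at 26.2, 22.4, 35.3 and 41.8 in hypothalamus controls against 11.4, 2.79 and 22.5. Its difference was -2.96 ± 0.90. The retinoid-binding protein Crabp2 (-2.79 ± 0.88) and the retinoic acid-making enzyme Aldh1a2 (-2.85 ± 1.04) had differences of like size, as did the sulfate transporter Slc13a4 (-3.00 ± 1.00). The transcription factors Tbx18 (-1.38), Foxc1 (-1.46) and Foxc2 (-1.69) had smaller ones. All 14 tested meningeal fibroblast markers had an unadjusted p under 0.05 for a lower difference, against 2.01% of all genes. The markers rise and fall with the same libraries, so they are not 14 separate results. The list was also chosen with earlier results of these data known. The median change of the markers was 0.72 in hippocampus, where 14 of 14 lay above 0, and -1.29 in hypothalamus, where 14 of 14 lay below. The median difference was -2.03, against 0.02 over all genes. The hippocampus median was 0.392, 0.429 and 0.442 without fructose 2, control 2 and control 3, and the hypothalamus median -0.798 without fructose 2.

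Collagens and other matrix genes, which fibroblasts secrete, followed. All 23 tested members had a difference below 0, 8 at an unadjusted p under 0.05, with a median of -1.12; over all genes 3826 of 8239 lay below 0 and 2.01% had such a p. Their median change was 0.49 in hippocampus (0.291, 0.308 and 0.321 without fructose 2, control 3 and control 2, and 0.822 without control 4) and -0.57 in hypothalamus (-0.35 without fructose 2). Col1a1, a chain of type I collagen, had -3.05 ± 0.94; it lay at 33.6, 7.35, 8.67 and 54.2 FPKM in hippocampus controls against 51.5, 191, 38.9 and 53.8, and at 23.4, 34.2, 47 and 67.9 in hypothalamus controls against 12.4, 7.8 and 41.3. The proteoglycan Bgn had -1.95 ± 0.64. In hippocampus Bgn lay at 27.6, 16.1, 14.4 and 60.6 FPKM in controls and 40.1, 70, 34 and 39.3 with fructose, and in hypothalamus at 50.6, 51.3, 83.3 and 112 against 26.4, 18 and 60.8. Both genes overlapped between control and fructose in both regions. Fbln1 (-1.70) and Col3a1 (-2.59) completed the named matrix genes, while Sparc, also made by other cells of the brain, had -0.10.

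**Figure D2:**
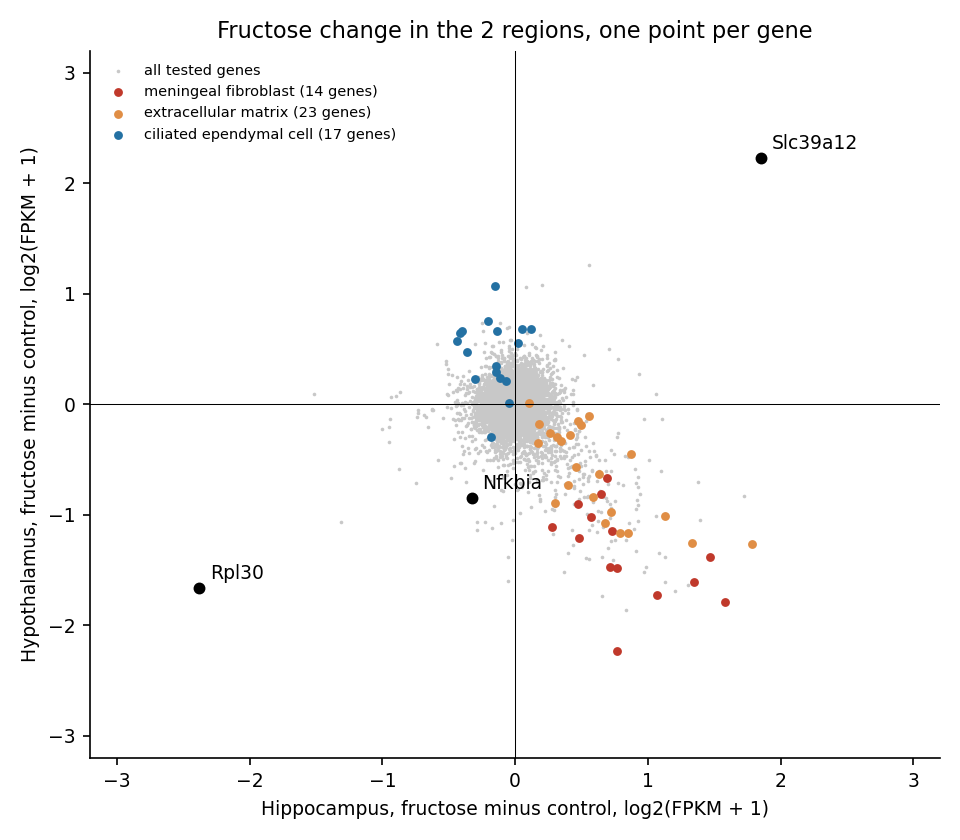
Fructose-minus-control change of each of 8239 genes in hippocampus (horizontal) and hypothalamus (vertical), on the log2(FPKM + 1) scale, with meningeal fibroblast (red), matrix (orange) and ciliated ependymal (blue) genes coloured; 2 genes lie outside the axes. The red and orange genes lie at the lower right (hippocampus above 0, hypothalamus below 0), the blue ones mostly at the upper left, and Slc39a12 and Rpl30 in the quadrants of shared direction.

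Genes of antigen presentation and markers of border macrophages lay on the same side. Of 8 tested genes of antigen presentation, 8 had a difference below 0 (3826 of 8239 over all genes) and 4 an unadjusted p under 0.05 (2.01% over all genes). The median change was 0.69 in hippocampus, 0.445 without control 3, and -0.60 in hypothalamus. The latter was -0.135 without fructose 2 and -1.14 without fructose 3, and the median difference of -1.43 was -0.779 without hypothalamus fructose 2. Cd74, the invariant chain of MHC class II, lay at 90.2, 15.5, 11.4 and 84.3 FPKM in hippocampus controls and 110, 171, 50.5 and 77.1 with fructose. In hypothalamus it lay at 126, 134, 137 and 135 in controls and 57.5, 24.2 and 184 with fructose, so fructose replicate 3 exceeded every control. The class II genes RT1-Ba (-1.70) and RT1-Da (-2.08) belong to a family of near-identical copies, among which reads can be split. Clec10a (-1.83) and F13a1 (-1.22), markers of border macrophages, had an unadjusted p under 0.05, and all 4 tested markers of these cells lay below 0.

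Some secreted and vascular genes also had a lower difference at an unadjusted p under 0.05, which 2.01% of all genes had. Of 6 tested genes of the IGF system, the binding protein Igfbp2 (-2.70 ± 0.95), the growth factor Igf1 (-0.81 ± 0.34) and Igfbp6 (-2.19 ± 0.93, also a meningeal marker) had an unadjusted p under 0.05. Of 14 tested retinoid genes, 3 had one, Crabp2, Aldh1a2 and the retinol carrier Rbp4 (-2.49), while the median of the list was 0.10. Of 11 mural cell markers 3 had one, the desmin gene Des, the vitronectin gene Vtn and the calponin gene Cnn1, and of 14 endothelial markers 1, the cadherin Cdh5 (-0.93). Thbd and Ctgf were the 2 of 12 genes of the vascular Klf and shear response list. Ccl19, a chemokine, was the only 1 of 5 tested NF-kappa-B and inflammation genes (-2.43), and Bst2 and Ifit3 were the 2 of 11 interferon-induced genes.

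S100a6, a calcium-binding protein, also had opposite signs. It lay at 101, 28.8, 29.6 and 451 FPKM in hippocampus controls against 218, 398, 128 and 136, and at 18.8, 14.8, 28.2 and 23.7 in hypothalamus controls against 8.69, 4.55 and 5.45. The hypothalamus groups did not overlap; the difference was -2.94 ± 0.95 (limma, unadjusted p = 0.00737). Klf2, a shear-responsive transcription factor of endothelium, had -0.58 ± 0.58, and Bdnf, a neuronal growth factor, -0.06 ± 0.35. The other lower genes named by rank were the nucleoside transporter Slc28a2 (-1.23), the small heat shock protein Hspb2 (-1.46), Fam180a (-2.13), the secreted Sema3b (-0.97), the carboxypeptidase Cpz (-2.90) and the membrane protein Emp2 (-0.69), with the sulfotransferase Sult1a1 (-1.85), the receptor Mrgprf (-1.98) and the sphingosine kinase Sphk1 (-1.18) among those of opposite sign.

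Several of the higher genes are markers of ciliated ependymal cells. In hypothalamus Spata18 lay at 1.01, 2.8, 2.16 and 2.49 FPKM in controls and 4.98, 4.42 and 7 with fructose, and in hippocampus at 1.13, 1.47, 2.31 and 1.75 against 1.62, 0.537, 1.38 and 2.32. Spag6, a protein of the central pair of cilia, lay at 4.61, 4.48, 6.59 and 4.74 in hypothalamus controls and 9.35, 7.56 and 7.17 with fructose, and in hippocampus at 4.43, 5.39, 4.57 and 2.83 against 3.76, 1.83, 1.78 and 4.89. For both, every hypothalamus fructose library lay above every control, and the hippocampus groups overlapped. The differences were 1.22 ± 0.35 and 1.01 ± 0.34 (limma, unadjusted p = 0.00344 and 0.00925).

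Ccdc153 (0.95), Tmem212 (1.06) and Mlf1 (1.06) were the other ciliated ependymal markers at an unadjusted p under 0.05, which made 5 of 17 tested, against 0.522% of all genes. Of the 17, 16 had a difference above 0, with a median of 0.57. The median change was -0.14 in hippocampus and 0.55 in hypothalamus. The hippocampus value was -0.0266 and -0.0381 without fructose 2 and control 3, and -0.274 and -0.304 without fructose 4 and fructose 1. Foxj1, the transcription factor that switches on motile cilia, had a change of 0.02 in hippocampus and 0.55 in hypothalamus, and a difference of 0.53 ± 0.38. Rsph1, a radial spoke protein, was the member on the other side, with -0.11.

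Other higher genes named by rank were Lrrc46 (0.79 ± 0.21, with the smallest p of the higher genes, 0.00164), Dnph1 (0.82), the steroid dehydrogenase Hsd17b14 (0.75), the lysophospholipase Pnpla7 (0.44), the mitochondrial asparaginyl-tRNA synthetase Nars2 (0.59), Erich2 (0.64), Lrrc2 (0.54) and the aminopeptidase Lap3 (0.53). Lrrc46 lay at 5.4, 7.51, 5.49 and 8.08 FPKM in hypothalamus controls against 9.21, 10.9 and 10.2, and in hippocampus at 3.62, 4.7, 3.76 and 4.54 against 3.48, 2.78, 3.65 and 3.67. Ccdc176, the asparaginase-like Asrgl1 and the succinate semialdehyde dehydrogenase Aldh5a1 were named for changes below 0 in hippocampus and above 0 in hypothalamus.

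Tnrc6a, a scaffold of microRNA silencing, was the only gene with groups apart in both regions in opposite directions (0.0121%). That count stayed at 1 in 2 of 15 fits that left out a library and reached 10 without hippocampus control 4. As for Ptger3, groups this small can lie apart by chance. Tnrc6a lay at 9.39 to 10.4 FPKM in hippocampus controls and 8.35 to 9.32 with fructose, and at 13.3 to 15.3 in hypothalamus controls and 15.5 to 15.8 with fructose. The changes were -0.11 and 0.11, and the difference was 0.21 ± 0.14 (limma, unadjusted p = 0.157). In single regions groups were apart for 20 higher (0.243%) and 37 lower genes (0.449%) in hippocampus, and for 145 (1.76%) and 138 (1.67%) in hypothalamus.

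Across all genes the directions were nearly evenly split. Both changes lay above 0 for 2109 genes (25.6%), both below for 2146 (26%), 1852 were above in hippocampus and below in hypothalamus (22.5%), and 2132 the reverse (25.9%). The split was uneven among genes with large changes: 109 genes lay past 0.5 in both regions, of which 8 had the same sign and 101 the opposite sign. Of these 101, 100 were higher in hippocampus and lower in hypothalamus, and Snhg4 was the single gene of the reverse kind. The 8 were Slc39a12 and Pnpla1 above 0, and Rpl30, Alox15, Avil, Fahd1, Retsat and RT1-CE16 below 0. Alox15, Avil, Fahd1, Retsat and RT1-CE16 were named after their values were seen, and RT1-CE16 belongs to the MHC family of near-identical copies. RT1-CE16 shared the sign but not the size, with -0.974 in hippocampus and -6.69 in hypothalamus. Its difference between regions was the lowest of all 8239 genes (-5.71, limma, unadjusted p = 0.133).

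The correlation of the changes of both regions across genes was -0.249 over 8239 genes, which are not independent replicates. It was -0.185 without the genes of the meningeal and matrix lists. Single libraries moved it, to -0.0464 without hippocampus fructose 2, -0.0475 and -0.0739 without hippocampus controls 2 and 3, -0.14 and -0.152 without hypothalamus fructose 2 and 1, and -0.358 and -0.369 without hippocampus control 4 and hippocampus fructose 4. The count of 101 was 42, 43, 50 and 64 without hippocampus control 3, hippocampus control 2, hippocampus fructose 2 and hypothalamus fructose 2, and 135 without hippocampus control 4.

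**Figure D3:**
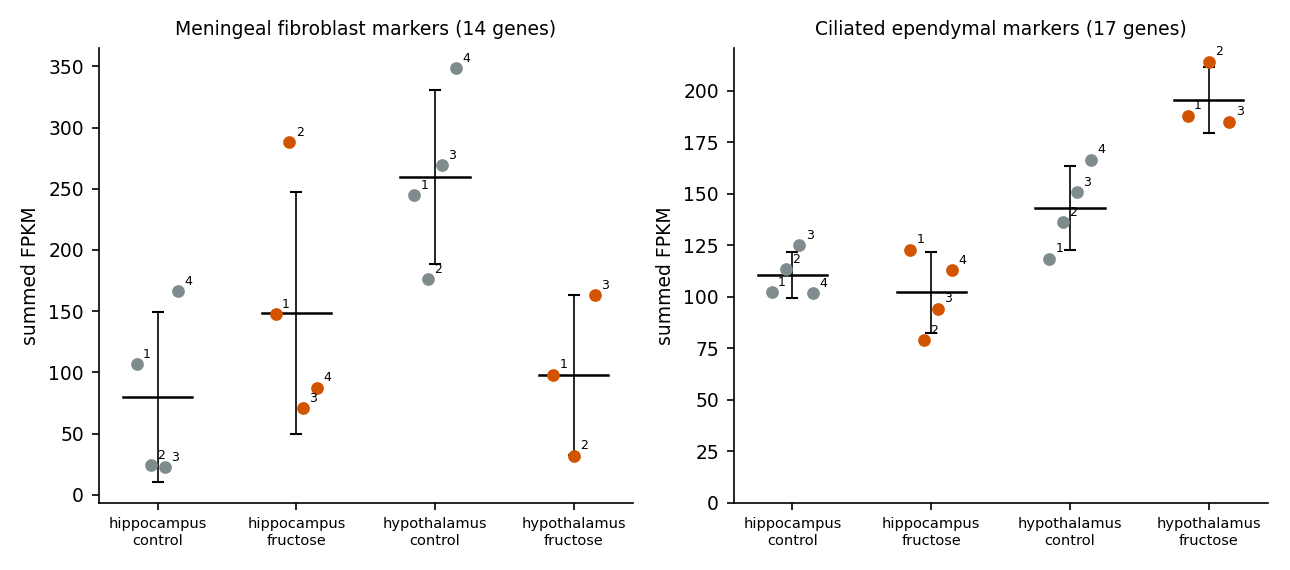
Summed FPKM of 14 meningeal fibroblast markers (left) and 17 ciliated ependymal markers (right) in every library (points with replicate numbers), with the group mean (line) and SD (bars). The meningeal sum spans 22.7 to 287.8 in hippocampus with overlapping groups and is lower in all 3 hypothalamus fructose libraries than in the controls; the ependymal sum is higher in all 3.

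The summed levels of meningeal and ependymal markers are totals of the same genes described above. That they moved with these changes is therefore not a separate result. In bulk tissue, fewer cells of a type and less RNA per cell cannot be told apart. The summed FPKM of the meningeal markers was 106.5, 24.4, 22.7 and 166.5 in hippocampus controls and 147.8, 287.8, 71 and 87.5 with fructose. In hypothalamus it was 244.8, 176.3, 269.3 and 348.3 in controls and 98.2, 32 and 163 with fructose. The hippocampus groups overlapped, with controls 2 and 3 the lowest, and the hypothalamus groups did not. Slc22a6 and Slc6a13, defining markers, were above 0 in every library.

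The ependymal sum was 102.1, 113.4, 125.2 and 101.9 in hippocampus controls and 122.9, 78.8, 94.3 and 112.9 with fructose, which overlap. In hypothalamus it was 118.5, 136.3, 150.7 and 166.6 in controls and 187.9, 214.1 and 185 with fructose, which do not. Foxj1 alone lay at 43.7 to 58.3 FPKM in hippocampus and 9.91 to 32.6 in hypothalamus, so its weight in the sum differs between regions. The mural sum had a range of 93.7 to 354.6 and 123.2 to 403 in hippocampus and of 307.5 to 529.9 and 216.3 to 347 in hypothalamus, control and fructose in turn. Choroid plexus markers summed to 1198 to 7575 in hippocampus, where the secretory choroid gene Ttr reached 7409, and to 26.4 to 107 in hypothalamus.

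Markers of most neurons and glia differed less between the regions. Of 12 astrocyte markers 10 had a difference above 0 and 0 an unadjusted p under 0.05, with a median of 0.38; the astrocyte sum was 2162 to 3424 in hippocampus and 3850 to 5913 in hypothalamus. Of 8 GABA neuron markers, 7 lay above 0 with a median of 0.29, and 0 had an unadjusted p under 0.05. Microglia (14 tested, median 0.14), oligodendrocytes (15 tested, 0.09) and pan-neuronal genes (6 tested, 0.09) also held 0. So did the lists of oxidative phosphorylation (55 tested, 0.05), glycolysis (13, 0.08), cholesterol synthesis (14, -0.01), insulin and leptin signalling (15, 0.09), receptors of glutamate and GABA (24, 0.04) and the circadian clock (12, 0.13).

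**Figure D4:**
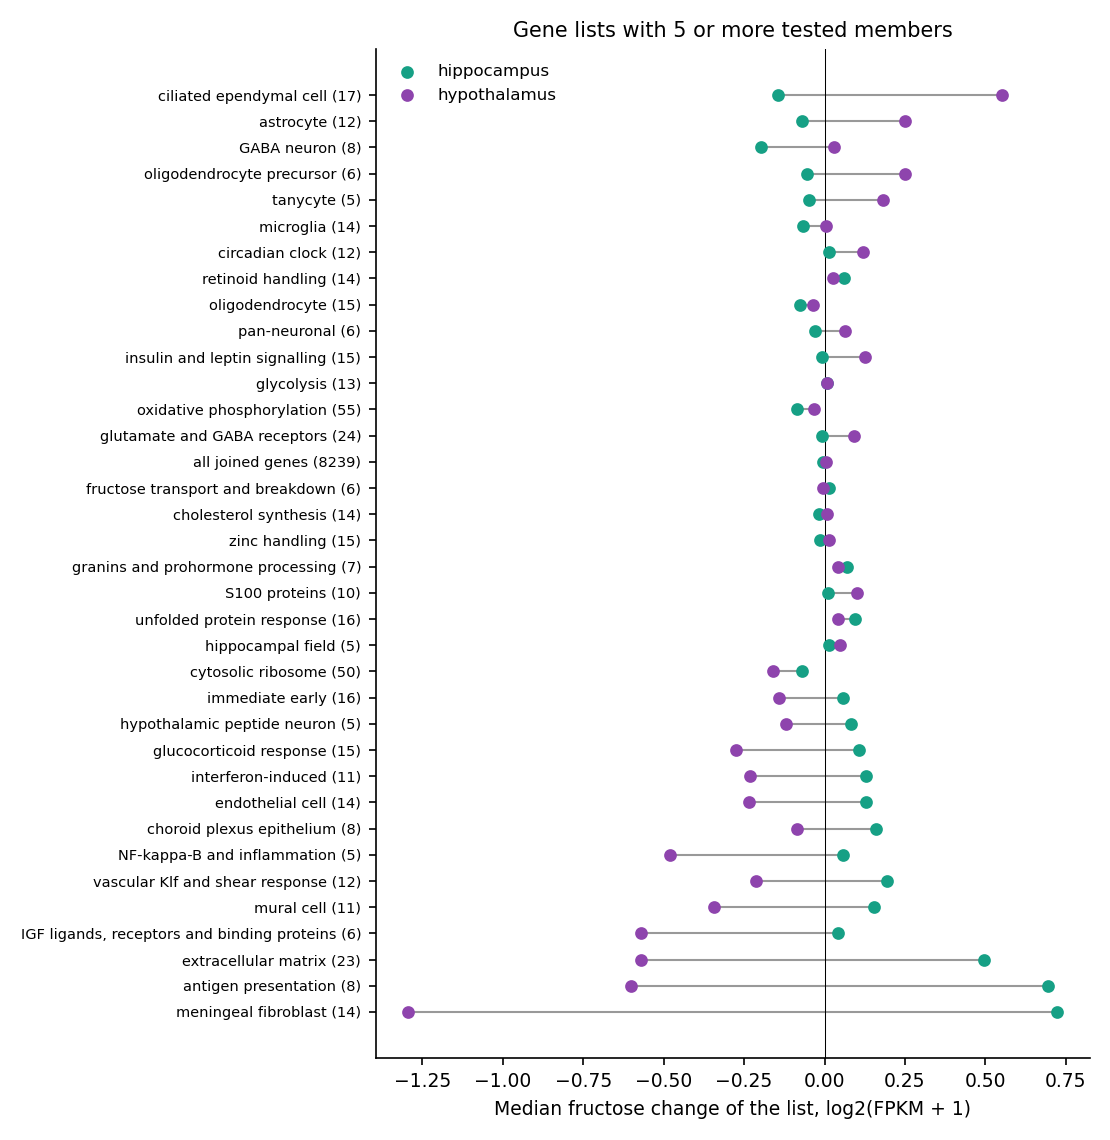
Median fructose change in hippocampus (green) and hypothalamus (purple) for each gene list with 5 or more tested members (number in brackets), ordered by the median difference between regions. The meningeal list has the widest span, from 0.72 to -1.29, the ciliated ependymal list opens in the other direction from -0.14 to 0.55, and most metabolic and neuronal lists lie near 0 in both.

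A meningeal score, the mean log2(FPKM + 1) of the 14 markers, was then related to each gene within the groups, where the group means play no part. At an adjusted p under 0.05, 239 genes had a positive slope on it (2.9%) and 2 a negative one (0.0243%); for the ependymal score there were 0. Of the 166 lower genes, 114 had a positive slope at an adjusted p under 0.05 and 150 at an unadjusted one, against 7.31% of all genes; none had a negative slope at an unadjusted p under 0.05, against 3.99%. Of the 43 higher genes, 5 had a negative slope at an unadjusted p under 0.05, against 3.99% of all genes. A positive slope at that p was met by 0 of the 43, against 7.31%. Of the 100 genes past 0.5 that were higher in hippocampus and lower in hypothalamus, 99 had a positive slope at an unadjusted p under 0.05. Leaving out every gene with a slope at an unadjusted p under 0.05 in either direction gave a correlation of the region changes of 0.168 over 7308 genes.

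With the meningeal score as a covariate, the difference of the lower genes lay near 0. The median over the 166 went from -1.29 to -0.03, and 2 of them, Chst15 and Eif3c, kept an unadjusted p under 0.05; over all genes there were then 29 lower (0.352%) and 49 higher (0.595%), and 0 at an adjusted p under 0.05. For markers of the meningeal list the gene itself was left out of the score, and their median difference went from -2.03 to 0.04. The medians of the matrix (0.24) and antigen presentation (0.29) lists lay above 0 in that fit. The median over the 43 higher genes went from 0.59 to 0.49, and 11 kept an unadjusted p under 0.05, among them Lrrc46 (0.65), Spata18 (0.98), Dnph1 (0.86) and Pnpla7 (0.65). The median of the ciliated list went from 0.57 to 0.40. These are values that move together; the part of tissue composition in the differences was not tested.

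Chst15, a sulfotransferase of chondroitin sulfate chains, did not follow the meningeal score, with a slope of -0.02. It lay at 9.61, 8.81, 9.95 and 8.67 FPKM in hippocampus controls and 10.1, 10.4, 15.3 and 12.9 with fructose, which do not overlap. In hypothalamus it lay at 4.96, 3.29, 4.24 and 4.7 against 3.02, 2.69 and 3.57, which overlap. The difference was -0.71 ± 0.21 without the covariate and -0.75 with it (limma, unadjusted p = 0.00461 and 0.016). Slc39a12 kept its shared change with the covariate (2.00, limma, adjusted p = 0.0411), and its slope on the score was -0.16 (unadjusted p = 0.451).

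**Figure D5:**
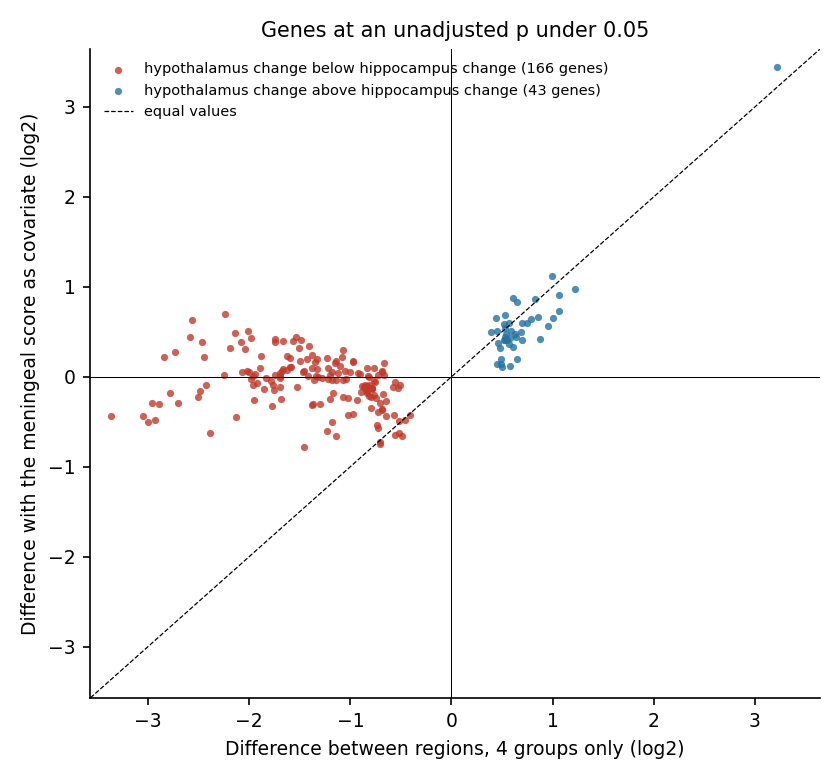
Difference between regions without (horizontal) and with (vertical) the meningeal score as a covariate, for the 209 genes at an unadjusted p under 0.05; the dashed line marks equal values. The 166 red genes fall to a band around 0 on the vertical axis (median -0.03). The 43 blue genes have a median of 0.49. Some of them lie near or above the dashed line, and others, such as Asrgl1 (0.11) and Aldh5a1 (0.15), lie well below it.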

How the data were processed

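Poly-A-enriched RNA was sequenced on a HiSeq 2000, with CASAVA 1.8.2 for demultiplexing, per the labels' protocols. The deposited FPKM values were made by the authors; per the submitters' processing notes, TopHat, Bowtie, Cufflinks, Cuffdiff, TopHat2, Bowtie2 and build rn5 were named, without versions or roles. The tables were deposited separately per region and have no read counts, so depth and counting error are unknown; tests compare only changes within a region's table, and levels of the regions are set side by side as descriptions, from tables normalized separately. Columns were matched to samples by region, group and replicate number, and regions were joined by symbol. Of the tested genes, 73 have a status other than OK in some library and were kept.

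On log2(FPKM + 1), limma 3.58.1 in R 4.3.3 fitted 4 groups over 15 libraries (11 residual degrees of freedom, prior variance with a trend), with 2-sided moderated tests of the region changes, their mean and their difference, and Benjamini-Hochberg adjustment over 8239 genes at 0.05. The script was tested on simulated data. Deviations from the group means of control and fructose libraries of the same number correlated at 0.75, 0.35 and 0.27 in hypothalamus, where each of 3 pairs is over 0.1 and the numbers are taken to pair the libraries from the data, and at 0.57, -0.31, 0.35 and 0.14 in hippocampus, where they are not. In hypothalamus replicate 1 stood apart in both groups, which can raise such correlations without any pairing, so pairing by number is an assumption there. Blocked counts stand beside those they move by over 1.5 times. Printed errors are SE. The 41 gene lists (20 of cell types, 21 of pathways) are described by counts and medians, with no set test. The members and lists were chosen with earlier results of these data known.

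Named genes were the 12 smallest p per direction of the difference, the 8 smallest per direction of the shared change, the 8 per opposite pair of signs with the largest value of the smaller absolute region t statistic, up to 4 members of each list described and a fixed set (Bgn, Slc39a12, Nfkbia, S100a6, S100a9, Rpl30, Klf2, Khk, Slc2a5, Insr and Bdnf; Khk and Insr were not tested), passing over placeholder symbols; other names were chosen after their values were seen. Alternatives were pseudocounts of 0.1 and 0.5, no filter and a minimum of 5 FPKM, quantile and median scaling, no trend, array weights, replicate blocks, a replicate 1 term, leaving out libraries, symbols with several loci, and marker scores as covariates. Promoters came from RefSeq (GRCr8). Plots were made in Python 3.11.15 with matplotlib 3.10.9.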

Additional observations from a re-analysis of the deposited data

Results flagged for a closer look

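Among 51 named genes with 153 groups of 4 libraries, 16 groups held a library far from the other 3, by a rule that chance meets in about 1 group in 20. In hippocampus fructose, replicate 2 stood high for Col1a1 (191 FPKM, others 38.9 to 53.8), Crabp2 (55.4) and Bgn (70), 3 genes that go with the meningeal score, whose sum is also highest in that library. Replicate 1 stood high for Rpl30 (6.69, others 0.921 to 1.19) and replicate 4 for Ptger3 (1.77). In hippocampus controls, replicate 4 stood high for S100a6 (451, others 28.8 to 101) and S100a9 (1.49), replicate 2 for Bdnf (14.1), and replicate 1 low for Lrrc2 (2.4). In hypothalamus controls, replicate 1 stood low for Tmem212 (5.74, others 10.7 to 11.3) and high for Zhx3 (13.8), replicate 2 low for Tbx18 (1.55) and Sphk1 (0.824), replicate 3 high for Spag6 (6.59), and replicate 4 high for Gtf2a2 (181, others 105 to 110) and low for Erich2 (6.94). The causes of these values were not tested.

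Tnrc6a had every hippocampus fructose library below and every hypothalamus fructose library above its controls. The difference between regions was 0.214 on the log2 scale, and its test (limma, unadjusted p = 0.157) did not pass.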

How the results depend on the processing

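Depth is unknown and each group has 3 or 4 libraries, which limits every count given here. The difference between regions of the 30 ranked genes kept its sign in all 15 fits that left out 1 library, and in all other settings but 1: Crabp2 was 0.153 with both marker scores as covariates. Under the settings not named below, the counts at an adjusted p under 0.05 were as in the report.

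With no filter on low values, 116 genes were higher and 266 lower at an unadjusted p under 0.05 for the difference, and with a minimum of 5 FPKM 21 and 76; both left 0 genes for a higher shared change at an adjusted p under 0.05. Array weights per library gave 714 and 803 (90 and 249 at an adjusted p under 0.05), 334 higher and 415 lower genes in hypothalamus, 3 higher and 1 lower for the shared change, a correlation of -0.496, and median differences of -3.43, -1.98 and -2.68 for the meningeal, matrix and antigen presentation lists. The cause was not tested.

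By the correlation of same-numbered libraries, the replicate numbers were taken to pair the hypothalamus libraries and not all of the hippocampus ones. In these regions 5 of 6 and 4 of 8 libraries correlated best with their own number. These correlations cannot show a pairing, since replicate 1 stood apart in both hypothalamus groups. A replicate block within each region gave 107 higher genes at an unadjusted p under 0.05, an adjusted p of 0.0398 for Slc39a12, and 0 genes at an adjusted p under 0.05 for the difference; a block shared by the regions gave 0.022. No call at an adjusted p under 0.05 changed under either block.

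A term for replicate 1 gave 117 higher genes at an unadjusted p, 1 higher gene in hypothalamus and 1 lower gene for the shared change. Without all replicate 1 libraries there were 171, with 1 higher and 1 lower gene in hippocampus, 1 higher in hypothalamus and 1 lower for the shared change at an adjusted p under 0.05.

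With the meningeal score as covariate, 29 genes were lower at an unadjusted p under 0.05 and the correlation was -0.118. The meningeal medians were 0.04 for the difference, -0.00838 in hippocampus and 0.0526 in hypothalamus; those of the matrix list were 0.235 for the difference and 0.243 in hypothalamus, and of the antigen presentation list 0.293 and 0.40. With the ependymal score added, 35 genes were lower, 1 gene passed for a lower shared change, and these medians were 0.112, -0.0504 and 0.0754, then 0.275 and 0.218, then 0.466 and 0.476, with -0.00979 for antigen presentation in hippocampus. The ciliated medians were 0.0684 for the difference and 0.0786 in hypothalamus, where each gene was fitted with a score of the list's other genes.

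Leaving out 1 library at a time gave 0 to 1 genes higher and 0 lower at an adjusted p under 0.05 for the difference (25 to 118 and 63 to 296 unadjusted), 0 to 1 in each direction in hippocampus, 0 to 1 higher in hypothalamus, and 0 to 2 in each direction for the shared change. The median difference ranged from -2.44 to -1.56 for the meningeal list, -1.43 to -0.786 for the matrix list, -2 to -0.779 for antigen presentation and 0.47 to 0.737 for the ciliated list, and the correlation from -0.369 to -0.0464.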
